A study of Mus musculus with 23 samples.

Results

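The replication-dependent core and linker histone genes of the mouse lie in clusters named Hist1 to Hist4. They were taken here as the rows of the expression tables whose symbol starts with Hist1h, Hist2h, Hist3h or Hist4h. These are 68 of 24421 genes, of which 6 are named as linker histone H1, 18 as H2A, 19 as H2B, 12 as H3 and 13 as H4. Among those of H2B, Hist3h2bb-ps is annotated as a processed pseudogene. The Hist1 cluster on chromosome 13 holds 54 of the 68, the Hist2 cluster on chromosome 3 holds 10, the Hist3 cluster on chromosome 11 holds 3 and the Hist4 locus on chromosome 6 holds 1.

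Messenger RNA was sequenced after poly-A selection in cells labelled both as myeloid-derived suppressor cells (MDSCs) and as immature myeloid cells, which had been taken from mouse peripheral blood with magnetic beads. The CT26 groups came from mice of the strain given as Balbc at day 0, day 4, day 8 and day 11, with 3 libraries each (CT26 is a colon carcinoma line). The B16 groups came from mice given as C57bl at the same days, with 3 libraries each except day 4, which had 2, replicates 1 and 3 (B16 is a melanoma line). The study asked how these blood cells change as a tumour grows. No further allele, agent, age or route of tumour implantation is given in the sources used here, and model, mouse strain and expression table go together, so they cannot be told apart. The design text speaks of biological repeats without saying that the libraries of a group came from separate animals, so the spread between them may be technical.

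Cells make most of their histones during DNA synthesis, when new chromatin has to be packed. The messenger RNAs of the clustered genes are unusual because they normally end in a conserved stem-loop instead of a poly(A) tail, a structure bound by the stem-loop binding protein SLBP. Some of these genes also yield polyadenylated transcripts, which have been described in differentiated, non-dividing cells. H2A, H2B, H3 and H4 make up the nucleosome core, and H1 binds the linker DNA between nucleosomes.

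Because the RNA was selected by its poly(A) tail, the annotated transcript ends of the members were read from the GENCODE M21 transcripts of build GRCm38. The 16 letters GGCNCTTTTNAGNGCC, in which N is any base, were searched on the transcript strand. They occur in 42 of the 68 members and in 0.0799% of 58797 protein-coding transcripts. The sites of 5 members that the results turn on, which show how the letters vary and how close to the end they lie, are given here with up to 5 bases on each side, the stem-loop in capitals.

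Hist1h1c stem-loop, chr13:23739507-23739532, plus strand: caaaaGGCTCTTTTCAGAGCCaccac
Hist1h4i stem-loop, chr13:22040961-22040986, minus strand: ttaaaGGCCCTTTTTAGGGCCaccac
Hist1h4m stem-loop, chr13:21812124-21812147, plus strand: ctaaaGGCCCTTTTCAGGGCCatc
Hist1h2bb stem-loop, chr13:23747198-23747223, plus strand: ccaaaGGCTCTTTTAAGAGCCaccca
Hist3h2a stem-loop, chr11:58955167-58955192, plus strand: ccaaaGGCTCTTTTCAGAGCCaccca

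The form of Hist1h1c and Hist3h2a is the commonest, found in 26 members, and that of Hist1h4m was found in 7, that of Hist1h2bb in 6 and that of Hist1h4i in 2. What differs between members is where the annotated transcript stops. In 24 members it runs more than 50 bases past the stem-loop, in 17 it stops within 50 bases after it, in 13 it has an annotated 3′ UTR without these letters, and in 14 it has neither. Members with several transcripts were placed by the transcript that runs on, so that Hist1h2bp, which holds the letters in 1 of its 2 transcripts, is counted among the 13. The Hist1h1a transcript stops inside the letters, so the absence of a match can also come from a short annotation. The transcript of Hist1h1c runs 840 bases past the stem-loop, that of Hist1h2be 1861 bases, that of Hist3h2a 1643 bases and that of Hist1h4i 330 bases, while that of Hist1h4m stops 3 bases after it and that of Hist1h2bb 23 bases after it. Hist1h2bc has a transcript of 2 exons with a 3′ UTR of 742 bases and no stem-loop letters. The last 30 bases of 4 annotated transcripts that do hold a polyadenylation signal (AATAAA or ATTAAA, in capitals) are shown next.

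Hist1h1c end, chr13:23740338-23740367, plus strand: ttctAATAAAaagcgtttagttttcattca
Hist1h2be end, chr13:23583670-23583699, minus strand: tgtgttccttATTAAAgcattcctgattga
Hist1h4i end, chr13:22040636-22040665, minus strand: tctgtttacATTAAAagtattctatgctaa
Hist2h2be end, chr3:96223709-96223738, plus strand: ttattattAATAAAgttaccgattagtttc

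Such letters lie in the last 50 bases of 17 members and of 50.2% of all protein-coding transcripts. The members with a level high enough to test were spread unevenly over these classes. A member was tested where its mean over the libraries of a model reached 5 normalized counts, that is reads divided by the authors' factor for each library. This held for 10 of the 24 members whose transcript runs past the stem-loop, 3 of the 17 that stop at it, 2 of the 13 with another 3′ UTR and 2 of the 14 with neither. Together, the 37 members that run past the stem-loop or have another 3′ UTR carried 95.7% of the members' summed mean level in CT26 and 98.8% in B16. Most of that level came from Hist1h1c, Hist1h2bc and Hist1h2be, and it was not divided by transcript length. The split by polyadenylation signal letters was less uneven. The 17 members with them carried 63.7% in CT26 and 52.5% in B16, and 7 of them were tested. Of the 51 without them, Hist1h2bc among these, 10 were tested. The shares are descriptions, and the annotated ends are not the ends measured in these libraries.

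**Figure D1:**
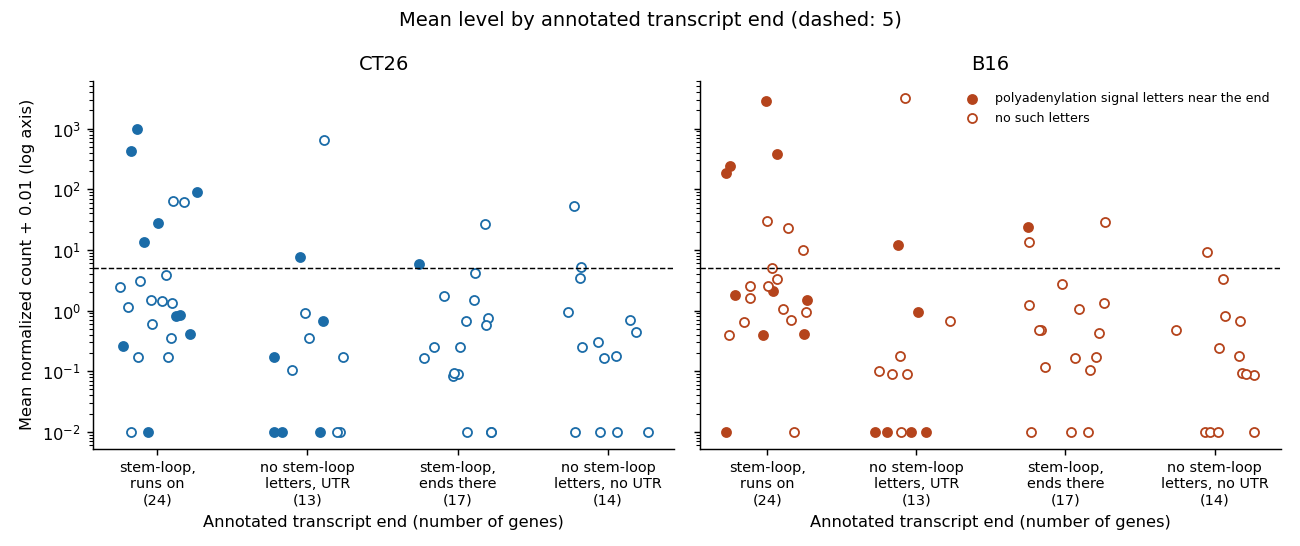
Mean normalized count of each of the 68 members plus 0.01 (log axis) in CT26 and B16, by the annotated transcript end; filled points have polyadenylation signal letters in the last 50 bases and the dashed line is the minimum of 5 for testing. The members above 100 all run past the stem-loop or have another 3′ UTR, and 17 members stop at the stem-loop.

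Clustered histone genes were a small part of the libraries. Their summed level was 0.0124% to 0.0266% of all normalized counts in CT26 libraries and 0.0400% to 0.0759% in B16 libraries, at depths of 10815301 to 13098033 reads in CT26 and 10866557 to 15967218 reads in B16. Of the 68 members, 12 were above 0 in all 23 libraries, 10 were at 0 in all of them, and the rest were seen in some. A count of 0 in a library allows up to 3 reads. In CT26 13 members were tested and in B16 14, 10 of them in both models, and 51 were tested in neither, with means of at most 3.38. Those just outside in CT26 were Hist1h4m at 4.13 and Hist1h2ac at 3.79, and those just inside Hist1h2bn at 5.14 and Hist1h4h at 5.94. In B16 Hist1h3i at 3.34 and Hist1h1d at 3.28 lay just outside and Hist1h3d at 5.09 and Hist1h2bn at 9.22 just inside.

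By histone type, 2 of 6 H1 genes, 2 of 18 H2A genes, 6 of 19 H2B genes, 0 of 12 H3 genes and 3 of 13 H4 genes were tested in CT26. In B16 these were 2, 2, 5, 1 and 4. The nucleosome contains the 4 core histones in equal number, but the normalized counts of their genes were not so divided. At CT26 day 0 the summed level was 1380 ± 62.6 (SD, n = 3) for H1, 94.3 ± 7.09 for H2A, 1143 ± 68.3 for H2B, 7.15 ± 4.59 for H3 and 127 ± 17.8 for H4. At B16 day 0 it was 2037 ± 205 for H1, 131 ± 26.3 for H2A, 3262 ± 129 for H2B, 5.56 ± 5.71 for H3 and 176 ± 14.4 for H4. H1 and H2B genes thus held nearly all of the signal in both tables, and H3 genes were near 0. Of the 50-base stretches of an H3 gene's transcripts, 24.8% (Hist1h3d) to 100% (Hist2h3b and Hist2h3c1) also occur in another gene. Sharing is high in some genes of the other types as well. How reads that match several genes were treated is not given, so the sums may miss such reads.

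**Figure D2:**
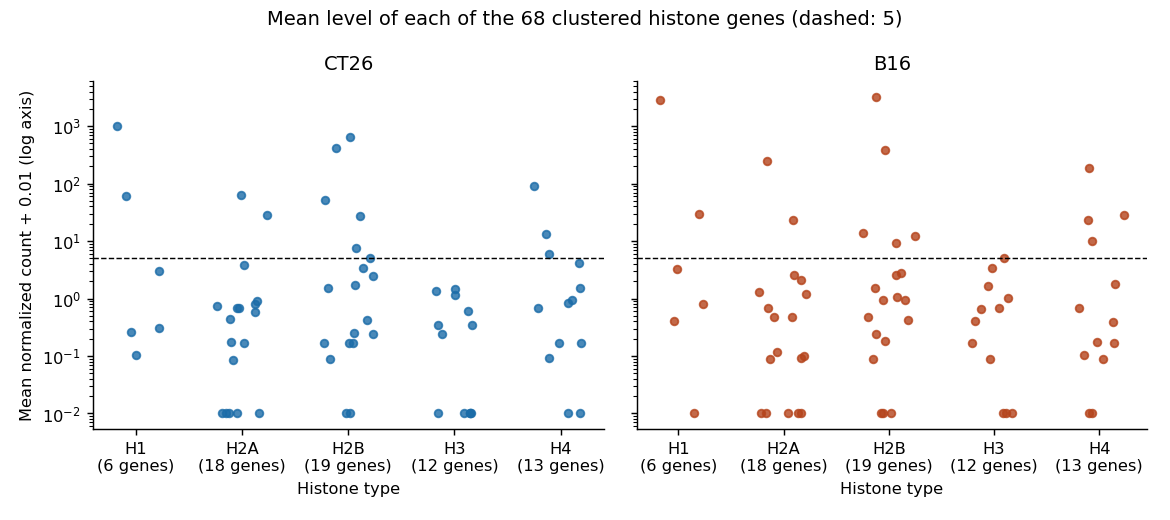
Mean normalized count plus 0.01 (log axis) of each member by histone type in CT26 and B16; each point is a gene and the dashed line marks 5. The highest points are Hist1h1c among H1 genes (992 in CT26 and 2885 in B16) and Hist1h2bc among H2B genes (648 and 3234), and no H3 gene lies above 5.09 (Hist1h3d in B16).

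Within the members the signal came from 3 genes, Hist1h1c (an H1 gene, chr13:23738808-23740367, 1 exon), Hist1h2bc (an H2B gene, chr13:23684199-23692908) and Hist1h2be (an H2B gene, chr13:23583670-23621124). They made up 79.1% to 86.2% of the members' reads in a CT26 library and 89.5% to 93.8% in a B16 library. Per kilobase of exons the mean level in CT26 was 636 for Hist1h1c, 561 for Hist1h2bc, 137 for Hist2h2bb, 126 for the H4 gene Hist1h4i (chr13:22040636-22041362), 122 for Hist2h2ac and 95.4 for Hist1h2be. In B16 the per-kilobase order began with Hist1h2bc at 2797 and Hist1h1c at 1850, followed by Hist1h4i at 252, Hist3h2a at 115 and Hist1h2be at 84.9. The Hist1h2be gene model contains exons that overlap Hist1h1e on the same strand, so reads there cannot be assigned to one of them with certainty.

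Many members are near copies of one another, which limits the reading of single genes. Of all 50-base stretches of a tested member's transcripts, a median of 30.6% (n = 17) also occur in another gene, against 57.0% (n = 41) for members not tested but seen in some library and 93.3% (n = 10) for members at 0 in every library. For Hist1h1c the share was 8.54%, for Hist2h2be 0%, for Hist1h2bc 30.6%, for Hist1h2bn 86.4% and for Hist1h4m 89.8%, shared with its neighbour Hist1h4n. All stretches of Hist2h2bb lie in Gm20628, which overlaps it on the opposite strand. Of those of Hist3h2a, 31.5% lie in Trim17, whose exons overlap it on the same strand. Whether reads were counted by strand, and how reads that match several genes were treated, is not given in the sources used here. For Hist2h2ac the share was 55.0%. Values of Hist1h4m, Hist1h2bn, Hist2h2bb and Hist2h2ac are therefore uncertain as values of one gene. Reads in the part that Hist3h2a shares with Trim17 cannot be assigned to one of them with certainty either.

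None of the neutrophil and monocyte markers listed was at 0 in any group. The same held for the platelet and the B and plasma cell markers, so this cannot check the label of the cells. The 12 neutrophil markers summed to between 534910 and 1033940 normalized counts per library and the 10 monocyte markers to between 8114 and 19047. At CT26 day 0 the mean sum was 17117 for eosinophil markers and 8896 for monocyte markers. At B16 day 0 it was 7560 for B and plasma cell markers and 8961 for monocyte markers. In bulk samples, fewer cells of a type and less RNA per cell cannot be told apart. Platelet markers were higher at every later B16 day than at day 0. Their 18 genes summed to 5266 to 19885 at day 0, 57063 and 162599 at day 4, 48264 to 112085 at day 8 and 37740 to 44609 at day 11. In CT26 the sum was 3031 to 11993. The 45S ribosomal RNA precursor Rn45s took 2.57% to 3.10% of the B16 day 0 libraries and 0.427% to 1.05% of the later ones.

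During CT26 growth the linker histone gene Hist1h1c fell. Its normalized counts were 1327, 1362 and 1247 at day 0, 1130, 1114 and 1173 at day 4, 983, 1108 and 1079 at day 8, and 442, 535 and 399 at day 11. Every later library lay below the lowest day 0 library, and the day 11 libraries lay below all others. The log2 fold change against day 0 was -0.20 ± 0.10 (SE, limma, adjusted p = 0.174) at day 4, -0.31 ± 0.10 (adjusted p = 0.0212) at day 8 and -1.52 ± 0.10 (adjusted p = 1.22e-09) at day 11, the last a 2.88-fold fall. The day 4 change was called under scaling to equal totals (-0.32, adjusted p = 0.0278) and with only the 2 days fitted (adjusted p = 0.0428). The day 8 call ended when day 0 replicate 1, day 0 replicate 2 or day 8 replicate 1 was left out (adjusted p = 0.0545, 0.0826 and 0.0980), whereas the day 11 call held in all 20 alternatives, between -1.81 and -1.43. The share of Hist1h1c in the members' reads was 46.5% to 48.9% at day 0 and 24.1% to 28.8% at day 11. The summed platelet markers of CT26 were also lowest in the 3 day 11 libraries, at 3031 to 4130 against 4565 to 11993 in the others, and their part in this fall was not tested.

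The other H1 gene tested, Hist1h1e, stood at 49.5, 71.9 and 67.6 at day 0, 67.8, 70.5 and 89.5 at day 4, 73.0, 52.2 and 64.3 at day 8, and 30.7, 43.7 and 47.1 at day 11. The day 11 libraries all lay below the day 0 libraries, by a log2 fold change of -0.63 ± 0.21 (adjusted p = 0.0191). That call ended without day 0 replicate 2, day 0 replicate 3 or day 11 replicate 1 (adjusted p = 0.0853, 0.0666 and 0.0706) and with only the 2 days in the fit.

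Among the H2B genes of CT26, Hist2h2bb was higher at each later day. Its counts were 24.8, 41.9 and 34.8 at day 0, 57.3, 64.4 and 77.6 at day 4, 57.0, 45.0 and 72.4 at day 8, and 42.4, 49.5 and 57.5 at day 11. None of the later libraries reached down to the day 0 range. The log2 fold changes were 0.97 ± 0.23 (adjusted p = 0.0112), 0.77 ± 0.23 (adjusted p = 0.0179) and 0.56 ± 0.23 (adjusted p = 0.0474). The day 11 call was lost in 15 of 20 alternatives, edgeR, DESeq2 and limma-voom among them, and the day 4 and day 8 calls were lost without day 0 replicate 1 (adjusted p = 0.0629 and 0.0928), without day 4 replicate 3 (adjusted p = 0.0581) or without day 8 replicate 3 (adjusted p = 0.105). In B16 the same gene was at 0 in 10 of 11 libraries and at 0.873 in the other.

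The abundant H2B gene Hist1h2bc stood at 742, 610 and 611 at CT26 day 0 and at 530, 599 and 532 at day 11, a log2 fold change of -0.24 ± 0.09 (adjusted p = 0.0472). The ranges did not overlap but lay close together, and the call was lost in 12 of 20 alternatives. Hist1h2be was not called against day 0 by limma, with 386 to 428 at day 0, 472 to 493 at day 4, 443 to 469 at day 8 and 308 to 398 at day 11, and it was lower at day 11 than at day 8 (log2 -0.36 ± 0.10, adjusted p = 0.0139). Against day 0 it was called lower at day 11 by edgeR (-0.25, adjusted p = 0.0256), by limma-voom (-0.25, adjusted p = 0.0230) and under scaling to equal totals (-0.45, adjusted p = 0.000316), and higher at day 4 with only those 2 days fitted (0.26, adjusted p = 0.0361) or without day 11 replicate 1 (adjusted p = 0.0241). Hist2h2be fell from 12.1 ± 1.68 to 4.05 ± 0.965 at day 8 (log2 -1.39 ± 0.46, adjusted p = 0.0337), a call lost in 8 of 20 alternatives, among them the omission of any 1 day 0 or day 8 library (adjusted p up to 0.107). The tested H2A genes Hist2h2ac, at 47.8 to 85.9, and Hist3h2a, at 22.1 to 34.8, were not called on any day of CT26, and neither were the H4 genes Hist1h4h, Hist1h4i and Hist2h4.

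In counts, limma called 1 of the 13 members tested in CT26 higher and 0 lower at day 4, against 10.9% of all 11373 genes called (6.4% higher and 4.46% lower). At day 8 it was 1 higher and 2 lower against 26.9% of all genes (15.1% higher and 11.8% lower). At day 11 it was 1 higher and 3 lower against 50.3% (26.3% higher and 24.0% lower). Limma gave an unadjusted p under 0.05 for 3, 5 and 4 members at these days, and edgeR, DESeq2 and limma-voom also called 0 members lower at day 4. The share of members called, 7.69%, 23.1% and 30.8%, was below that of all genes. The median log2 fold change of the members was 0.16, 0.01 and -0.24, and that of all genes 0.02, -0.01 and -0.01. The 3 comparisons share the day 0 libraries. Between day 8 and day 11, a comparison added after the values were seen, Hist1h1c (-1.21 ± 0.10, adjusted p = 1.71e-07), Hist1h1e, Hist1h2bb and Hist1h2be were lower and 0 members higher, against 20.9% of all genes called (10.9% higher and 9.94% lower). The Hist1h1c call held in all 20 alternatives, and those of Hist1h1e, Hist1h2bb and Hist1h2be were lost in 7, 6 and 2, DESeq2 being among them for Hist1h1e and Hist1h2bb.

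**Figure D3:**
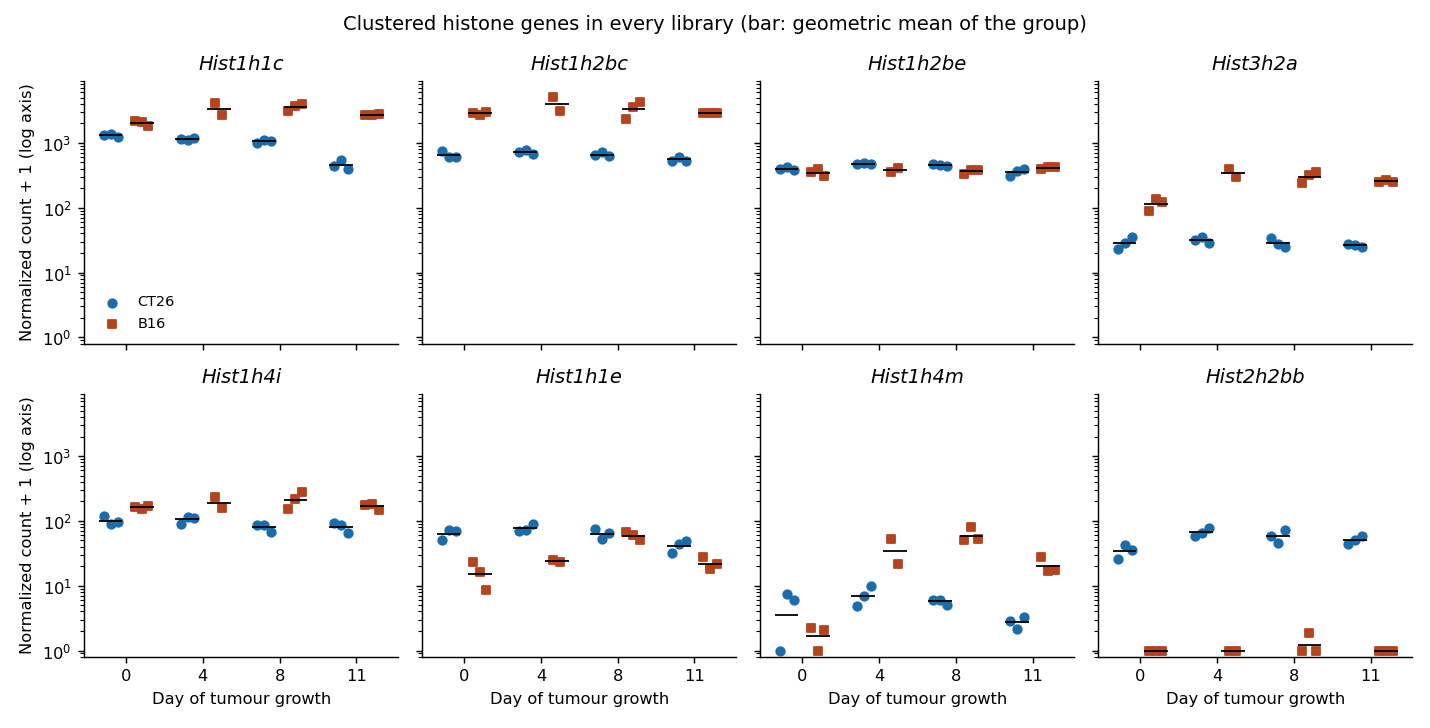
Normalized count plus 1 (log axis) of 8 members in every library of CT26 (circles) and B16 (squares) by day, with a bar at the geometric mean of the group. Hist1h1c is lowest in the 3 CT26 day 11 libraries (399 to 535) and higher in all later B16 libraries than at B16 day 0.

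During B16 growth more members rose than fell. Hist1h1c stood at 2169, 2092 and 1795 at day 0, 4069 and 2707 at day 4, 3062, 3700 and 3941 at day 8, and 2685, 2688 and 2830 at day 11. All later libraries exceeded the highest day 0 library. The log2 fold change was 0.72 ± 0.15 (limma, adjusted p = 0.00247) at day 4, 0.82 ± 0.13 (adjusted p = 0.000224) at day 8 and 0.44 ± 0.13 (adjusted p = 0.0171) at day 11. The day 4 and day 8 calls held in all 19 alternatives, and the day 11 call was lost under scaling to equal totals (0.30, adjusted p = 0.0728), without day 0 replicate 3 (adjusted p = 0.0599) or without day 11 replicate 3 (adjusted p = 0.0570).

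Hist1h1e rose at day 8. Its counts were 22.3, 15.4 and 7.73 at day 0, 23.8 and 21.8 at day 4, 66.2, 59.3 and 49.9 at day 8, and 26.3, 16.8 and 20.8 at day 11. The day 8 libraries stood above every other B16 library, with a log2 fold change of 1.98 ± 0.33 (adjusted p = 0.000291) against day 0, and the gene was lower again at day 11 than at day 8 (-1.43 ± 0.33, adjusted p = 0.00567). At days 4 and 11 it was not called against day 0 (0.67 ± 0.37, adjusted p = 0.186, and 0.56 ± 0.33, adjusted p = 0.195).

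Both tested H2A genes rose in B16. Hist3h2a (chr11:58954685-58956830) stood at 89.2, 137 and 121 at day 0, 396 and 294 at day 4, 238, 313 and 360 at day 8, and 252, 267 and 244 at day 11. No later library fell into the day 0 range, and the log2 fold changes of 1.57 ± 0.20 (adjusted p = 0.000121), 1.38 ± 0.18 (adjusted p = 4.24e-05) and 1.15 ± 0.18 (adjusted p = 0.000322) held in all 19 alternatives at each day. Hist1h2ac (chr13:23681467-23683948) went from 4.95, 9.23 and 12.1 at day 0 to 42.2 and 22.7 at day 4 and 26.3, 41.0 and 48.2 at day 8, and stood at 10.8, 11.9 and 26.3 at day 11. It was called at day 4 (1.79 ± 0.47, adjusted p = 0.0109) and day 8 (2.05 ± 0.42, adjusted p = 0.00130) but not at day 11 (0.79 ± 0.42, adjusted p = 0.149), and the day 4 call ended without day 4 replicate 1 (adjusted p = 0.126).

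With all libraries, limma did not call the 2 abundant H2B genes on any day of B16. Hist1h2bc stood at 2880, 2677 and 3035 at day 0, 5096 and 3146 at day 4, 2341, 3559 and 4215 at day 8, and 2858, 2913 and 2849 at day 11. The libraries of days 4 and 8 spread widely while those of days 0 and 11 lay close together, and the log2 fold changes were 0.48 ± 0.21 (adjusted p = 0.0984), 0.20 ± 0.19 (adjusted p = 0.409) and 0.01 ± 0.19 (adjusted p = 0.981). Leaving out day 8 replicate 1 made Hist1h2bc a call at day 4 (0.48, adjusted p = 0.0264) and at day 8 (0.44, adjusted p = 0.0320), and leaving out day 4 replicate 3 made it one at day 4 (0.83, adjusted p = 0.0149). Hist1h2be lay between 305 and 431 in every B16 library and was called higher at day 11 without day 0 replicate 2 (0.34, adjusted p = 0.0290). Of the minor H2B genes, Hist1h2bn rose from 2.17 ± 0.920 to 19.2 ± 10.1 at day 8 (2.54 ± 0.54, adjusted p = 0.00159). Hist1h2bn passed the minimum for testing only through later libraries. Its day 4 call (1.68 ± 0.61, adjusted p = 0.0470) was lost in 16 of 19 alternatives. Hist1h2bb was the only member that limma called lower in B16 against day 0, from 19.8, 21.5 and 19.9 at day 0 to 7.64, 5.24 and 10.1 at day 8 (-1.34 ± 0.32, adjusted p = 0.00329), a call held in all 19 alternatives.

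Among the H4 genes of B16, Hist1h4m had the largest change of any tested member. Its day 0 mean of 0.781 lay under the minimum of 5, so it was tested only through the later libraries, where it is high. Of its 50-base stretches 89.8% also occur in another gene, so its values are uncertain as values of one gene. It stood at 1.24, 0 and 1.10 at day 0, 51.4 and 21.0 at day 4, 49.2, 78.5 and 51.6 at day 8, and 26.3, 15.8 and 16.4 at day 11. These are 2 reads over the 3 day 0 libraries, 80 over the 2 of day 4, 209 over the 3 of day 8 and 53 over the 3 of day 11. Per unit of depth the ratio to day 0 was 48.1 (95% exact interval 12.9 to 404) at day 4, 80.1 (21.9 to 666) at day 8 and 25.8 (6.80 to 219) at day 11, intervals that cover counting error only. On the log2(value + 1) scale the changes were 4.34 ± 0.48 (adjusted p = 4.33e-05), 5.15 ± 0.43 (adjusted p = 1.17e-06) and 3.58 ± 0.43 (adjusted p = 4.41e-05), held in all 19 alternatives, and this scale understates the change of low genes. In CT26, where its mean of 4.13 lay under the minimum for testing, the libraries were at 0 to 8.95.

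Hist1h4c, which also passed the minimum for testing only through later libraries, rose from 0, 1.03 and 3.31 at day 0 to 17.8, 27.1 and 19.4 at day 8 (3.42 ± 0.58, adjusted p = 0.000316). At day 4 it stood at 14.7 and 9.60 (2.65 ± 0.65, adjusted p = 0.00727), which was not called once day 4 replicate 1 was left out (adjusted p = 0.0661), and at day 11 it stood at 5.97, 1.98 and 7.67 (1.45 ± 0.58, adjusted p = 0.0591, not called). Hist1h4h rose from 9.91, 7.18 and 14.4 at day 0 to 24.6, 39.3 and 56.7 at day 8 (1.81 ± 0.39, adjusted p = 0.00180). Its day 4 libraries, at 34.9 and 20.1, also lay above day 0, but that call (adjusted p = 0.0351) was lost in 8 of 19 alternatives. The most abundant H4 gene, Hist1h4i, was not called, with 150 to 169 at day 0, 157 and 232 at day 4, 152 to 277 at day 8 and 148 to 184 at day 11. The only H3 gene tested, Hist1h3d, was not called on any day and stood between 1.19 and 16.5.

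In counts, 7 of 14 members were called higher by limma and 0 lower at B16 day 4, against 35.8% of all 11930 genes called (20.3% higher and 15.5% lower). At day 8 it was 8 higher and 1 lower against 56.0% of all genes (28.6% higher and 27.3% lower). At day 11 it was 3 higher and 0 lower against 45.7% (23.9% higher and 21.8% lower). Limma gave an unadjusted p under 0.05 for 8, 9 and 6 members, and edgeR, DESeq2 and limma-voom also called 0 members lower at day 4 and day 11. The share of members called was 50% at day 4, 64.3% at day 8 and 21.4% at day 11, so it was above that of all genes at the first of these days, near it at the second and below it at the third. The median log2 fold change was 0.99, 1.11 and 0.50 over the members and 0.01, -0.02 and -0.02 over all genes. The minimum of 5 for testing was a mean over all B16 libraries, for members and all genes alike. Hist1h4m, Hist1h4c, Hist1h2bn and Hist1h3d had day 0 means of 0.781, 1.45, 2.17 and 3.30, so they passed only through later libraries. Hist1h4m, Hist1h4c and Hist1h2bn are among the members called higher at day 4 and day 8. These counts and medians thus follow in part from the filter. Without day 4 replicate 1, the members called higher at day 4 numbered 3, but that leaves day 4 with 1 library, which is assumed to vary like the other groups. Between day 8 and day 11, again added after the values were seen, 6 members were lower and 0 higher, against 36.2% of all genes called (18.7% higher and 17.4% lower), namely Hist1h1c, Hist1h1e, Hist1h2ac, Hist1h4c, Hist1h4h and Hist1h4m. The Hist1h1e call held in all 19 alternatives, whereas that of Hist1h1c was lost in 9, that of Hist1h4h in 6, that of Hist1h2ac in 5 and those of Hist1h4c and Hist1h4m in 2 each.

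**Figure D4:**
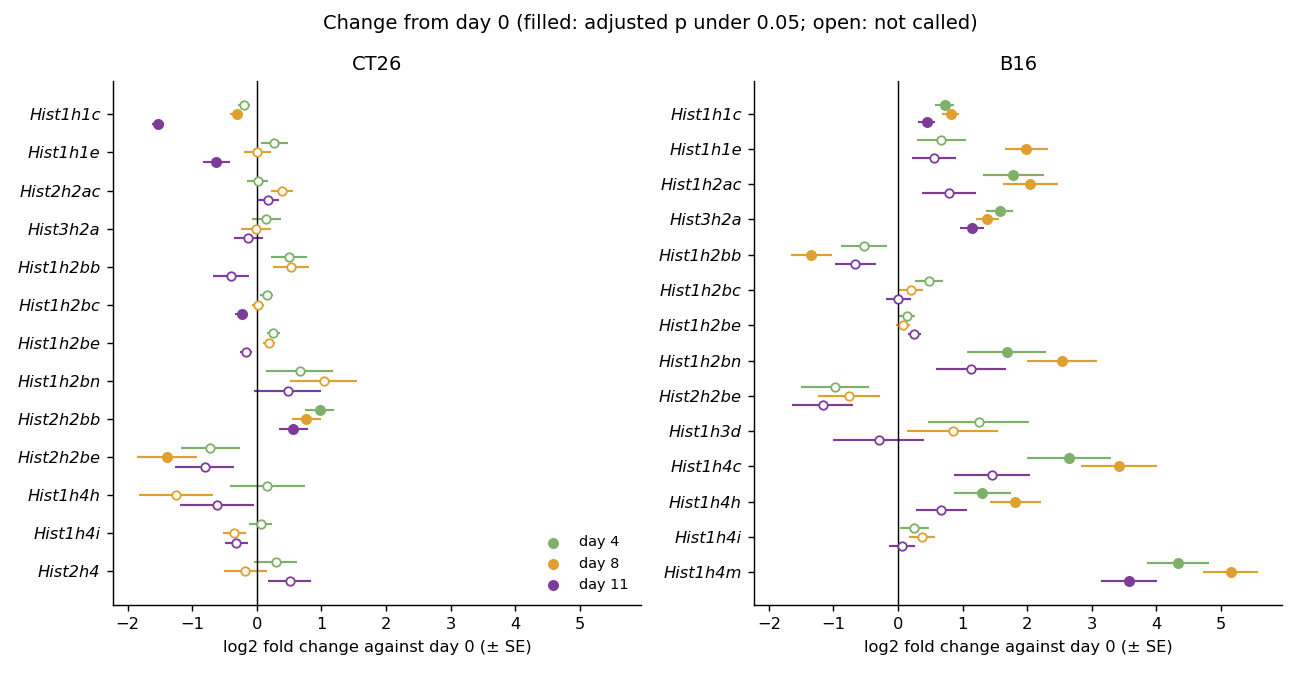
Log2 fold change against day 0 ± SE (limma on log2 of the normalized count plus 1) of each member tested in CT26 (13) and B16 (14), coloured by day; filled points have an adjusted p under 0.05. Hist1h1c lies left of 0 in CT26 and right of 0 in B16, and Hist1h4m lies farthest right, at 5.15 on B16 day 8. Hist1h4m passed the minimum for testing only through later B16 libraries.

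Within CT26 the summed level of the 68 members was lowest at day 11, and within B16 its mean was highest at days 4 and 8. In CT26 it was 2752 ± 122 at day 0, 2791 ± 45.1 at day 4, 2569 ± 90.1 at day 8 and 1711 ± 130 at day 11. The 3 day 11 libraries lay below all others. In B16 it was 5610 ± 127 at day 0, 8645 ± 2496 at day 4 (n = 2), 8145 ± 1585 at day 8 and 6579 ± 78.7 at day 11, and the later libraries all lay above the day 0 libraries. The later B16 days overlapped. Day 4 stood at 10410 and 6880, and day 8 replicate 1, at 6408, lay below the day 11 libraries, at 6493 to 6648. By type, the H1 sum stood at 501 ± 70.9 at CT26 day 11 while the H2B sum stood at 999 ± 69.1. In B16 the H2A sum went from 131 ± 26.3 to 357 ± 70.8 at day 8 and the H4 sum from 176 ± 14.4 to 341 ± 82.4. The number of members above 0 was 21 to 25 in the B16 day 0 libraries and 37 to 39 in those of day 8, which were also more deeply sequenced, with 14276720 to 14818286 reads against 10866557 to 13217550. It was 32 and 28 in the B16 day 4 libraries, with 15445686 and 15967218 reads. In those of B16 day 11 it was 25 to 28, with 12469421 to 15163576 reads. The part of depth in these numbers was not tested.

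Platelet markers were also higher at the later B16 days. All 18 were higher at day 4 and day 8 and 17 at day 11, with median log2 fold changes of 3.62, 3.39 and 2.42. The 3 libraries with the highest platelet sums, day 4 replicate 1, day 8 replicate 3 and day 8 replicate 2, were also the 3 highest in the members' sum, in Hist1h1c, in Hist1h2bc and in Hist3h2a. Day 4 replicate 3 ranked 4 in platelet sum, members' sum, Hist1h2bc and Hist3h2a, and 6 in Hist1h1c. Day 11 replicate 2 ranked 6 in platelet sum, members' sum and Hist1h2bc, 7 in Hist1h1c and 5 in Hist3h2a. Some libraries did not keep the order. Day 0 replicate 3 had the highest platelet sum of day 0 (19885) but the lowest Hist1h1c (1795) and members' sum (5528) of all B16 libraries. Day 8 replicate 1 ranked 5 in platelet sum and 11, the lowest, in Hist1h2bc. The part of platelet RNA in the histone values was not tested. Erythroid markers were also higher at B16 day 4, 4 of 6 tested, with sums of 801 and 828 over the list against 153 to 174 at day 0 and the haemoglobin genes Hba-a1, Hba-a2 and Hbb-bt at 0, and their part was not tested either. Rn45s, which lacks a poly(A) tail, and a second RNA of the list of species without a tail were both lower at each later B16 day, and the part of this shift in the histone values was not tested.

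**Figure D5:**
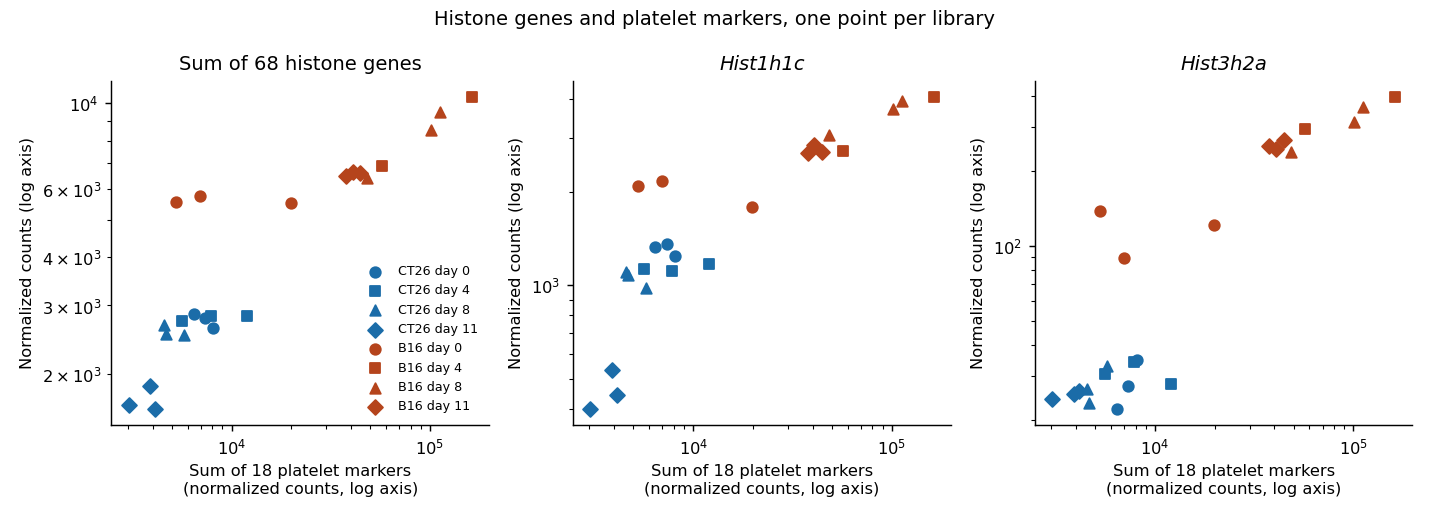
Summed normalized counts of 18 platelet markers (log axis) against the sum of the 68 members, Hist1h1c and Hist3h2a (log axes), 1 point per library, coloured by model and shaped by day. The B16 libraries of days 4 and 8 with the 3 highest platelet sums hold the highest histone values, and the B16 day 0 libraries hold platelet sums of 5266 to 19885.

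The models were compared by testing whether the change from day 0 in CT26 differed from that in B16, over the 10 members tested in both. Hist1h1c differed at every day, by -0.92 ± 0.18 (joint limma fit, CT26 minus B16, adjusted p = 0.000914) at day 4, -1.13 ± 0.17 (adjusted p = 9.13e-06) at day 8 and -1.97 ± 0.17 (adjusted p = 6.70e-09) at day 11. Hist3h2a also differed at every day, by -1.42 ± 0.29 (adjusted p = 0.00138), -1.39 ± 0.27 (adjusted p = 0.000202) and -1.28 ± 0.27 (adjusted p = 0.000677). These 6 calls held in all 30 alternatives. Hist1h1e differed at day 8 (-1.98 ± 0.39, adjusted p = 0.000226) and day 11 (-1.19 ± 0.39, adjusted p = 0.0180), the latter lost without B16 day 0 replicate 3 or B16 day 11 replicate 1.

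At day 8 Hist1h4h (-3.07 ± 0.71, adjusted p = 0.000985) and Hist1h4i (-0.73 ± 0.28, adjusted p = 0.0324) had lower changes in CT26 than in B16, and Hist1h2bb differed the other way (1.87 ± 0.41, adjusted p = 0.000535). In CT26 Hist1h4h stood at only 8.14 ± 5.63 at day 0 and 2.36 ± 0.551 at day 8, so the CT26 side of its difference rests on few reads. The Hist1h4i call was lost in 6 of 30 alternatives. At day 11 Hist1h2be differed (-0.42 ± 0.14, adjusted p = 0.0201), a call lost in 3. Altogether 0 members were higher and 2 lower in this contrast at day 4, against 20.9% of 10989 genes called (9.24% higher and 11.7% lower). At day 8 it was 1 higher and 5 lower against 50.3% (23.7% higher and 26.6% lower), and at day 11 it was 0 higher and 4 lower against 43.1% (20.8% higher and 22.3% lower). An unadjusted p under 0.05 was found for 3, 6 and 4. Levels in the 2 tables, normalized apart, were not tested against each other, but Hist2h2bb, with a mean of 52.0 in CT26 and 0.0793 in B16, was above 0 in 12 of 12 CT26 libraries and 1 of 11 B16 libraries. Hist2h2ac had means of 63.6 and 2.51 and was above 0 in all libraries of both tables. Because of the shared stretches, values of Hist2h2bb and Hist2h2ac are uncertain as values of one gene.

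Some members start close together on opposite strands. There are 14 pairs of members whose starts lie within 1000 bases of each other in this way, and in 10 of them neither gene was tested. Hist1h2ac and Hist1h2bc start 250 bases apart and had mean levels of 3.79 and 648 in CT26 and of 23.2 and 3234 in B16. Per kilobase these were 1.53 and 561 in CT26 and 9.36 and 2797 in B16. Hist2h2ac and Hist2h2be had means of 63.6 and 7.70 in CT26 and of 2.51 and 12.1 in B16, and per kilobase these were 122 and 2.94 in CT26 and 4.83 and 4.63 in B16. Those of Hist2h2ac are uncertain as values of one gene. The stretch from which both Hist1h2ac and Hist1h2bc start is shown because it carries both starts, 300 bases of the Hist1h2ac promoter from RefSeq (build GRCm38.p6), with 3 promoter motifs, found on either strand, in capitals. They are the TATA box letters TATAAA, the CCAAT letters of the CCAAT box and the octamer ATTTGCAT.

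Hist1h2ac promoter, chr13:23683910-23684209, minus strand: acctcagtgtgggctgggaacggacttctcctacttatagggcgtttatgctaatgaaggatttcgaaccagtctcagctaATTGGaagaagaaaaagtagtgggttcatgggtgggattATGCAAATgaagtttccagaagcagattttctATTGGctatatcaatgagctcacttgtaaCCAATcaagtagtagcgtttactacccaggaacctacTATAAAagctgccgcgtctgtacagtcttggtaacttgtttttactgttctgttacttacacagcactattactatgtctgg

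It holds 1 TATAAA, 3 CCAAT and 1 ATTTGCAT, the octamer known from H2B promoters. Promoters of 61 members were found in RefSeq through gene synonyms. TATAAA occurs in 57.4% of them and in 13.6% of all 32851 promoters of the same length, CCAAT in 85.2% and 37.4%, and ATTTGCAT in 22.95% and 1.74%. CCAAT occurs in every promoter of the H1, H2A, H2B and H3 members matched and in 3 of 12 H4 promoters, and ATTTGCAT in 7 of 17 H2A and 7 of 16 H2B promoters and in 0 of the other types. Of the 14 tested members with a promoter 57.1% hold TATAAA, 78.6% CCAAT and 42.9% ATTTGCAT, and of the 47 others 57.4%, 87.2% and 17.0%. The letters describe the stretch and are not sites of binding.

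Genes that act with the clustered histones were examined from lists, whose counts stand beside the shares of all genes called given above for each comparison, 10.9%, 26.9% and 50.3% in CT26 and 35.8%, 56.0% and 45.7% in B16. Of 18 genes of histone mRNA transcription and 3′ end formation, 0 were higher and 1 lower at CT26 day 4, 1 and 2 at day 8, and 5 and 5 at day 11. In B16 these numbers were 5 and 3, 6 and 4, and 3 and 5. Slbp, which encodes the stem-loop binding protein, stood at 442 ± 60.5 at CT26 day 0 and 529 ± 18.8 at day 11 and was not called (0.27 log2), and in B16 it went from 543 ± 11.0 to 412 ± 40.4 at day 8, where it was called lower (-0.40 log2). Npat, the histone gene coactivator, was lower at CT26 day 8 (-0.66) and day 11 (-0.67) and higher at B16 day 8 (0.71), and Hinfp, a transcription factor of H4 genes, was higher on all 3 later days of B16 (0.84, 1.61 and 1.07).

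The non-clustered histone genes, which give polyadenylated transcripts at any stage of the cell cycle, were examined in the same way. Of 9 tested, 0 were higher and 0 lower at CT26 day 4, 1 and 0 at day 8, and 4 and 3 at day 11, and in B16 these numbers were 1 and 4, 1 and 6, and 1 and 4. At CT26 day 11 the variant genes H2afz (0.64 log2) and H2afx (0.54) were higher, while H1f0 (-1.59), the replacement linker histone gene, and H3f3b (-0.51) were lower. In B16 H2afv was lower on all 3 days (-0.88, -1.32 and -1.05). H3f3b, one of the genes of the variant H3.3, stood at 8681 ± 941 at CT26 day 0 and 16347 ± 1182 at B16 day 0, whereas the 12 clustered H3 genes summed to 7.15 and 5.56. The clustered sums may miss reads that match several genes. Of 18 histone chaperone genes, 0, 2 and 6 were higher and 0, 2 and 2 lower in CT26, and 4, 5 and 4 were higher and 3, 4 and 5 lower in B16. Chaf1a, of the chromatin assembly factor that works during replication, was among the higher ones at CT26 day 11 (2.69).

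Of 33 genes of the cell cycle and DNA replication tested in CT26, 2 were higher and 1 lower at day 4, 7 and 0 at day 8, and 16 and 0 at day 11. At day 11 26.3% of all genes were called higher and 24.0% lower. The median log2 fold change of the list at day 11 was 0.77, and that of the histone members was -0.24. Among those higher at day 11 were Ccna2 (3.68), Uhrf1 (2.49), Rrm2 (2.34) and Top2a (2.17), genes of cell cycle control, replication-coupled DNA methylation, nucleotide supply and chromosome untangling. In B16 0, 3 and 1 of 34 were higher and 3, 4 and 3 lower. The lists of cells other than those named gave, as higher and lower at CT26 days 4, 8 and 11, 2 and 8, 2 and 7, and 1 and 12 of 13 B and plasma cell markers. T and NK cell markers gave 2 and 0, 1 and 1, and 0 and 5 of 10, and eosinophil markers 0 and 7, 0 and 8, and 0 and 8 of 8. Tissue macrophage markers gave 0 and 1, 7 and 1, and 7 and 1 of 8, and the part of these shifts in the fall of Hist1h1c was not tested. Platelet markers gave 5 and 2, 1 and 2, and 1 and 5 of 18 in CT26.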

How the data were processed

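Poly-A RNA was sequenced in 23 libraries, 12 of CT26 and 11 of B16. The 2 deposited tables hold the authors' normalized counts per gene (a signal: reads divided by 1 factor per library) for 24421 genes. Per the submitters' processing notes the build was mm10 and the tools included DESeq2 1.6.3, HTSeq 0.6.1p1, TopHat2 2.0.10 and cutadapt, with no role stated. No source used here gives the strand setting, the annotation or the treatment of multiply matching reads. Values were whole multiples of 1 step in every library (100% within a tolerance of 0.001), so that reads could be recovered. The step lies near 1 in 4 libraries of CT26, replicates 2 and 3 of day 4, replicate 3 of day 0 and replicate 1 of day 8, so the multiples are a weaker check there. Depth was 10815301 to 15967218 reads. The ratio of the largest to the smallest step was 1.30 for CT26 and 1.46 for B16. The planned test assumed counts, but the deposited values are normalized, so the main test was limma-trend (limma 3.58.1, R 4.3.3) on log2(value + 1).

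One fit was made per model over all its days, on genes with a mean of at least 5 normalized counts, and a joint fit gave the difference between models. P-values were adjusted over all genes tested (Benjamini-Hochberg), with a threshold of 0.05. Fold changes are on the log2(value + 1) scale, which understates those of low genes. Alternatives were a pseudocount of 5, no filter, scaling to the same total, edgeR 4.0.16, DESeq2 1.42.0 and limma-voom on recovered reads, a replicate block, each library left out, and fits of only 2 days. On recovered reads edgeR called 1459, 3218 and 5658 genes at CT26 days 4, 8 and 11 and 4312, 6689 and 5232 in B16, against 1235, 3056, 5721, 4276, 6676 and 5451 by limma. The limma fit of day 8 against day 0 in each model was also run on simulated data. These had the same spread beyond counting error for every gene, unlike the libraries here, so no conclusion is drawn from them.

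Replicate numbers are shared between groups in the labels, but no source says that they mark a shared animal or day. The deviations of same-numbered libraries correlated at a median of -0.05 in CT26 and -0.0021 in B16, so the libraries were not treated as paired. Coordinates, exon lengths and transcript ends come from GENCODE M21 (GRCm38) and promoters from RefSeq (GRCm38.p6), neither of which need be the authors' annotation. Members and lists were chosen with earlier results of these data known. Named are, per model, the 8 members with the highest mean, per comparison up to 4 called members with the largest change in each direction, the highest member of each type, and up to 4 called and 2 uncalled genes of each list, and further members that were called are named with their values. A planned correlation with the other lists was replaced by values side by side. The day 11 against day 8 comparison was added after the values were seen.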

Additional observations from a re-analysis of the deposited data

Results flagged for a closer look

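Changes of several members from day 0 differed between the models in the joint limma fit, given here as the CT26 log2 fold change minus that of B16. At day 4 the difference was -0.92 for Hist1h1c and -1.42 for Hist3h2a. At day 8 it was -1.13 for Hist1h1c, -1.98 for Hist1h1e, 1.87 for Hist1h2bb, -3.07 for Hist1h4h, -0.73 for Hist1h4i and -1.39 for Hist3h2a. At day 11 it was -1.97 for Hist1h1c, -1.19 for Hist1h1e, -0.42 for Hist1h2be and -1.28 for Hist3h2a. Model, strain and table cannot be told apart in these differences.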

How the results depend on the processing

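All B16 day 8 calls, the CT26 day 11 fall of Hist1h1c and the differences between models for Hist1h1c and Hist3h2a kept their direction and their side of the threshold in every alternative run; of the counts and summed levels, 470 alternative values stayed within 1.5 times or 1 SD of the reported one and 63 did not, the cause of which was not tested. With libraries scaled to equal totals, the median log2 fold change of all genes was -0.10, -0.18 and -0.29 at CT26 days 4, 8 and 11 (0.02, -0.01 and -0.01 as reported), 0.11 and -0.15 at B16 days 8 and 11 (-0.02 and -0.02), -0.10 and -0.30 for day 11 against day 8 of CT26 and B16 (0.01 and -0.05), and -0.34 and -0.15 for the model difference at days 8 and 11 (-0.04 and -0.01). Under that scaling CT26 had 1 member lower at day 4, 0 higher at day 8, and 0 higher and 5 lower at day 11, and B16 had 1 lower at day 11. As a percentage of the library total the members' sum was 0.935, 0.826 and 0.510 times day 0 in CT26 and 1.07 times at B16 day 11. With only the 2 days in the fit, CT26 had 2 higher and 1 lower at day 4, 0 higher and 1 lower at day 11 and 2 lower at day 11 against day 8, and B16 had 1 lower at day 11. Without a filter, which brings in more members, CT26 had 1 lower at day 8, 5 lower at day 11, and 1 higher and 2 lower at day 11 against day 8. B16 then had 13 higher at day 8, and the models differed with 5 lower at day 4, 10 lower at day 8 and 1 higher at day 11. With a pseudocount of 5, CT26 had 0 higher and B16 1 lower at day 11. At CT26 day 11 edgeR, DESeq2 and limma-voom each gave 0 higher, and DESeq2 gave 1 lower at day 8 and 2 lower at day 11 against day 8. With each library left out in turn, CT26 had 0 to 2 higher at day 4, 0 to 1 higher and 0 to 2 lower at day 8, 0 to 1 higher and 1 to 3 lower at day 11, and 1 to 5 lower at day 11 against day 8. B16 had 3 to 8 higher at day 4, 8 to 10 higher at day 8, 2 to 4 higher and 0 to 1 lower at day 11, and 1 to 8 lower at day 11 against day 8. The models differed with 0 to 1 higher and 2 to 3 lower at day 4, 4 to 6 lower at day 8 and 2 to 5 lower at day 11. The summed level was then 0.990 to 1.03, 0.911 to 0.951 and 0.595 to 0.639 times day 0 in CT26 and 1.23 to 1.85, 1.33 to 1.61 and 1.16 to 1.19 times in B16. The changes that turned direction were not called: Hist1h2bc at CT26 day 8 (-0.16 at equal totals, -0.0013 by edgeR, -0.036 to 0.11 with a library left out), Hist1h2bc at B16 day 11 (-0.13 at equal totals, -0.0085 by edgeR, -0.0055 by limma-voom, -0.041 to 0.049 with a library left out), Hist1h2be at B16 day 8 (-0.018 to 0.16 with a library left out), Hist1h2be at B16 day 11 against day 8 (-0.083) and in the model difference at day 8 (-0.19), both at equal totals, and Hist1h2bc in the model difference with a library left out (-0.68 to 0.014 at day 4 and -0.42 to 0.0050 at day 8). With the replicate block, the members called higher at B16 day 4 numbered 5 instead of 7, Hist1h2bn (adjusted p = 0.0512) and Hist1h4h (adjusted p = 0.0565) being lost, and those lower at B16 day 11 against day 8 numbered 4 instead of 6; the block left the counts at 1 and 0, 1 and 2, and 1 and 3 in CT26, at 8 and 1 and 3 and 0 at B16 days 8 and 11, and changed no call between the models. Members with under 3 reads per library cannot be followed at this depth.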

Other observations

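Lists of other cells not described above gave these counts. Of 6 promyelocyte and progenitor markers tested in CT26, 1 was higher and 2 lower at day 4, 2 and 1 at day 8, and 2 and 2 at day 11, and of 7 tested in B16, 1 was higher and 1 lower on each day. Neutrophil markers gave 6 and 1, 8 and 0, and 9 and 0 of 12 in CT26 and 5 and 2, 6 and 3, and 10 and 0 of 12 in B16. Monocyte markers gave 3 and 0, 5 and 2, and 4 and 4 of 10 in CT26 and 3 and 1, 3 and 3, and 4 and 0 of 10 in B16. In B16 the B and plasma cell markers gave 2 and 4, 1 and 8, and 2 and 5 of 13, T and NK cell markers 0 and 2, 1 and 1, and 2 and 2 of 11, eosinophil markers 1 and 1, 4 and 0, and 2 and 0 of 6, and tissue macrophage markers 1 and 0, 4 and 0, and 1 and 0 of 4. Of 3 erythroid markers tested in CT26, 0 were higher and 1, 2 and 2 lower.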
